A study of Mus musculus with 21 samples.

Results

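Heat shock proteins and their partners are molecular chaperones, and 77 of the 21872 gene symbols counted in both tables of the study belong to them by name. The 77 were taken by symbol alone: the Hspa (HSP70 and HSP110), Hsp90, Hspb (small heat shock protein), Hspd and Hspe (mitochondrial chaperonin) and Hsph symbols, the heat shock factors Hsf1 and Hsf2, and the Dnaja, Dnajb and Dnajc (J-domain) symbols, with Hspbap1 and Hspbp1. By family there were 11 HSP70, 3 HSP110, 3 HSP90, 8 small HSP, 3 chaperonin, 2 heat shock factor, 2 HSP-binding, 4 DNAJA, 13 DNAJB and 28 DNAJC genes. Families too were assigned by symbol alone, and whether each protein has its family's structure or function (Hspb11 among the small HSP, for one) was not checked. The study sequenced poly(A) RNA of mouse brain from mice given water and from mice given trientine (TETA), a drug that chelates copper, and the labels call the second condition copper-deficient. There were 6 water and 6 TETA libraries at embryonic day 18.5 (E18.5), and 5 water and 4 TETA libraries at 7 weeks after birth. Dose, strain and route of TETA are not given in the labels, and neither is how the embryos were exposed. The protocol text names the prefrontal cortex of male mice at 7 weeks, while region and sex at E18.5 are not stated. No label says which libraries come from separate animals, so the p-values measure the spread between these libraries.

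Chaperones of the HSP70 family bind unfolded stretches of a protein and release them by cycles of ATP hydrolysis. J-domain proteins bring clients to HSP70 and start the hydrolysis, HSP110 and Hspbp1 act in nucleotide exchange, and HSP90 takes over clients that are near their final fold. Small heat shock proteins hold unfolded proteins without ATP. Under protein stress in the cytosol Hsf1 binds heat shock elements, repeats of GAA and TTC, and raises the inducible genes (Hspa1a, Hspa1b, Dnajb1, Hsph1 and others). Stress in the endoplasmic reticulum (ER) raises another set (Hspa5, Hsp90b1, Dnajb9, Dnajc3) through elements that hold CCAAT and CCACG. Neurons rely on Hspa8 together with Dnajc5 at synaptic vesicles and Dnajc6 in removal of clathrin coats.

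The stretches below come from RefSeq promoter windows of mouse build GRCm38.p6 (the same build as mm10) and lie before the annotated RefSeq start. They are shown for 4 of the 9 genes past the test at 7 weeks, those with an element in the window (Hspa1b, Hspa1a, Dnaja4 and Hspa5), and for the partners Hspd1 and Hsp90b1, and the capitals mark the element found. None of the elements searched was found in the windows of Dnajb1, Dnajb5 and Dnajc21, and Hsf1 and Hspa9 had no window. In Hspa1b, Hspa1a and Dnaja4 the capitals are 2 heat shock units (GAANNTTC or TTCNNGAA), in Hspd1 a run of such units (3 or more, each separated by 2 bases), and in Hspa5 and Hsp90b1 the ER stress element (CCAAT, 9 bases, CCACG, or its reverse complement).
Hspa1b, chr17:34959305-34959372, minus strand: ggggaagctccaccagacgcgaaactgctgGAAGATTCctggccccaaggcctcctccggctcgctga
Hspa1a, chr17:34972223-34972290, minus strand: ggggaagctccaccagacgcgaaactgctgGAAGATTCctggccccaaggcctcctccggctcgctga
Dnaja4, chr9:54699464-54699519, plus strand: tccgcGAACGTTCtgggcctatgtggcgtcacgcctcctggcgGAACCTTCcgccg
Hspd1, chr1:55088053-55088082, minus strand: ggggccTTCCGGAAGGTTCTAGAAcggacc
Hspa5, chr2:34772020-34772048, plus strand: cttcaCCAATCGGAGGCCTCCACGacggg
Hsp90b1, chr10:86705513-86705676, minus strand: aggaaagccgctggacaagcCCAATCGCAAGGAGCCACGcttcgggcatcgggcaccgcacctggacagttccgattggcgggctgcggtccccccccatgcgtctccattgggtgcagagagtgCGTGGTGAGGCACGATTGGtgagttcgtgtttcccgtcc
The 2 inducible HSP70 genes share the stretch letter for letter, and 247 of their 250 upstream bases are identical (98.8%). A window was found for 61 of the 77 genes. Within the 250 bases before the start, the 3-unit heat shock element stood in Dnajb6, Hspd1 and Hspe1, 4.92% of the 61 against 0.514% of all 27025 genes with a window. Hspd1 and Hspe1 share their element, since they are transcribed away from each other from the same stretch. The 2-unit form, which also matches inside every 3-unit element, stood in 14 of the 61 (23%) against 14.5% of all genes. Of these 14 only Hspa1b, Hspa1a and Dnaja4 passed the test at 7 weeks. The ER stress element stood in Dnajc3, Hsp90b1 and Hspa5, 4.92% against 0.13%, and of these only Hspa5 passed. These are matches of letters on either strand and not measured binding.

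Library totals ran from 14668965 to 24292715 counts at E18.5, after a division explained next, and from 17838051 to 24035857 at 7 weeks. In the E18.5 table the 1940 genes at 0 in control replicate 1-1 carried only multiples of 11 elsewhere, and those rows were divided by 11; of the chaperone genes this touched Dnajb7, Dnajc5b and Hspb7. Cortical projection neuron markers (8 genes, among them Tbr1 and Neurod6) summed to between 1886 and 2095 CPM (counts per 1000000 counts of the library) in control at E18.5 and between 2263 and 2421 CPM in control at 7 weeks, each scaled within its age. Tested between the ages, 6 of the 8 were lower at 7 weeks and 1 higher, so the sum does not stand for each marker. Levels below are CPM after TMM scaling (edgeR's correction of library totals), and genes were tested by edgeR (quasi-likelihood), with p-values adjusted over all genes by the Benjamini-Hochberg method and a threshold of 0.05.

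Together the 77 genes took 0.943% ± 0.0285 of all counts in control at E18.5 and 0.934% ± 0.0146 in TETA (SD, n = 6 each). The shares at 7 weeks were 0.986% ± 0.0186 in control (SD, n = 5) and 1.00% ± 0.0316 in TETA (SD, n = 4). Per kilobase of annotated exon, 3 cytosolic chaperones led the order at both ages. Hsp90ab1, the constitutive HSP90, stood at 573 ± 28.1 CPM per kilobase in control at E18.5 and 523 ± 12.2 at 7 weeks (SD, n = 6 and 5). Hspa8, the constitutive HSP70, stood at 371 ± 24.7 and 387 ± 9.83 CPM per kilobase at those ages. Hsp90aa1, the inducible HSP90, followed at 222 ± 15.4 and 263 ± 10.5. Next came Hspd1, the mitochondrial HSP60, at E18.5 (85.4 ± 3.70) and Hsp90b1, the HSP90 of the ER, at 7 weeks (81.1 ± 1.56). At E18.5 Hspd1 and the gene after it, Hsp90b1 (78.1 ± 5.18), overlapped within 1 SD. At 7 weeks Hsp90b1 lay above Dnajc6 (76.9 ± 1.47) by more than 1 SD of either, while Dnajc6 and Dnajc5 (75.2 ± 0.750) overlapped within it. The inducible pair was low: in control at E18.5 Hspa1a stood at 0.569 ± 0.153 and Hspa1b at 0.470 ± 0.0822 CPM per kilobase.

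By family, HSP90 made up 39.7% of the summed CPM per kilobase in control at E18.5 and HSP70 23.6%. DNAJC followed at 14.6%, chaperonin at 5.92%, DNAJB at 5.33%, DNAJA at 4.83% and HSP110 at 3.97%, while small HSP (0.382%) and heat shock factors (0.513%) were the smallest. The shares in control at 7 weeks were 35.6% for HSP90, 23.2% for HSP70, 17.4% for DNAJC, 6.81% for DNAJB and 4.10% for chaperonin. TETA moved no family's share by as much as 1 percentage point at either age in these means: the HSP90 share in TETA was 40.1% at E18.5 and 35.1% at 7 weeks.

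**Figure D1:**
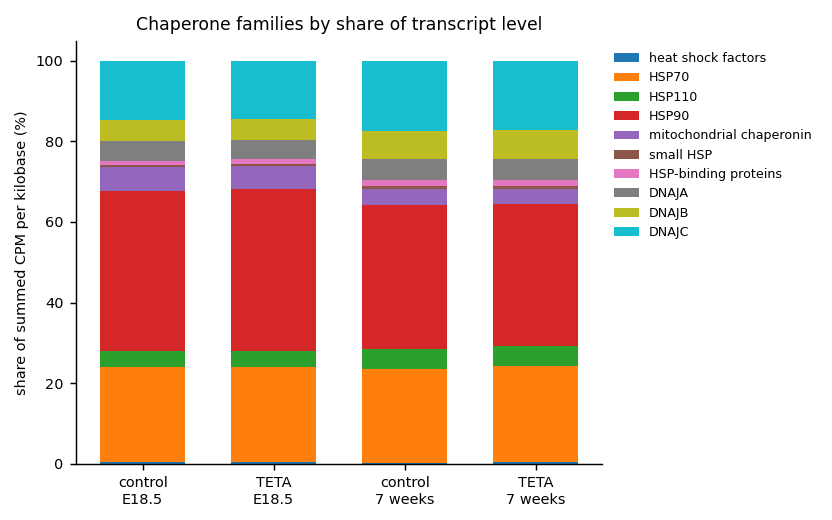
Share of the summed CPM per kilobase of exon (percent, vertical axis) taken by each chaperone family, as the mean of each of the 4 groups; 1 bar per group and no error bars. HSP90 is the widest band in every bar, from 35.1% to 40.1%, and the bars of control and TETA of an age look nearly alike.

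TETA was first compared with water at E18.5, which asks whether chaperone genes differ in the embryonic brain under copper chelation. None of the 67 chaperone genes tested passed the threshold, and none of the 13794 genes tested did (0%) in edgeR's quasi-likelihood test. An unadjusted p under 0.05 was reached by 3 of the 67 and by 4.78% of all genes. DESeq2 likewise called 0 chaperone genes, with 3 at an unadjusted p under 0.05. In no chaperone gene were the 2 groups free of overlap, against 0.312% of all genes. The median log2 fold change (TETA against control) was -0.01 over the 67 and -0.00 over all genes, and 30 were positive and 37 negative.

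For the 3 genes with the smallest p, edgeR's quasi-likelihood test gave an adjusted p of 0.996. Dnajb11, an HSP70 partner in the ER lumen, ranged from 50.9 to 56.4 CPM around a median of 54.5 in control and from 47.1 to 52.8 around 51.0 in TETA. Its log2 fold change was -0.09 (SE 0.041). Dnajc2, which works with HSP70 at the ribosome, ranged from 53.5 to 58.3 CPM (median 54.8) in control and from 50.5 to 54.8 (median 52.1) in TETA, a fold change of -0.08 (SE 0.037). Dnajc8 ranged from 75.6 to 83.8 CPM (median 81.6) in control and from 73.3 to 81.9 (median 75.3) in TETA, also -0.08 (SE 0.037). In all 3 the ranges of the groups overlapped.

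Hspa1a, Hspa1b and Hspb1 were low at E18.5 in both groups. Hspa1a ranged from 0.950 to 2.39 CPM (median 1.78) in control and from 1.28 to 2.74 (median 1.83) in TETA. Hspa1b ranged from 1.07 to 1.62 CPM (median 1.44) in control and from 1.23 to 1.93 (median 1.62) in TETA. Hspb1, the small heat shock protein HSP27, had the largest positive value at E18.5, a log2 fold change of 0.39 that rested on 0.356 to 0.814 CPM in control and 0.606 to 0.916 CPM in TETA. None of the 3 separated the groups. The abundant genes were flat: Hspa8 lay between 1484 and 1799 CPM (median 1652) in control and between 1589 and 1716 (median 1650) in TETA, and Hsp90ab1 between 1621 and 1877 (median 1811) and between 1831 and 1884 (median 1853).

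At 7 weeks 9 of the 68 chaperone genes tested passed the threshold, 8 higher and 1 lower in TETA. They make 13.2% of those tested, where 9.96% of all 14240 genes passed, and the 8 higher make 11.8% where 5.67% of all genes were higher and 4.28% lower. An unadjusted p under 0.05 was reached by 16 of the 68, beside 24% of all genes. The median log2 fold change over the 68 was -0.00 and that over all genes 0.00, with 32 positive and 36 negative. Higher were Hsf1, the inducible HSP70 genes Hspa1a and Hspa1b, the ER HSP70 Hspa5 and the J-domain genes Dnaja4, Dnajb1, Dnajb5 and Dnajc21. Hspa1a and Hspa1b share much of their sequence (given below), so their calls may rest in part on the same reads. Hspa9, the HSP70 of the mitochondrial matrix, was lower.

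**Figure D2:**
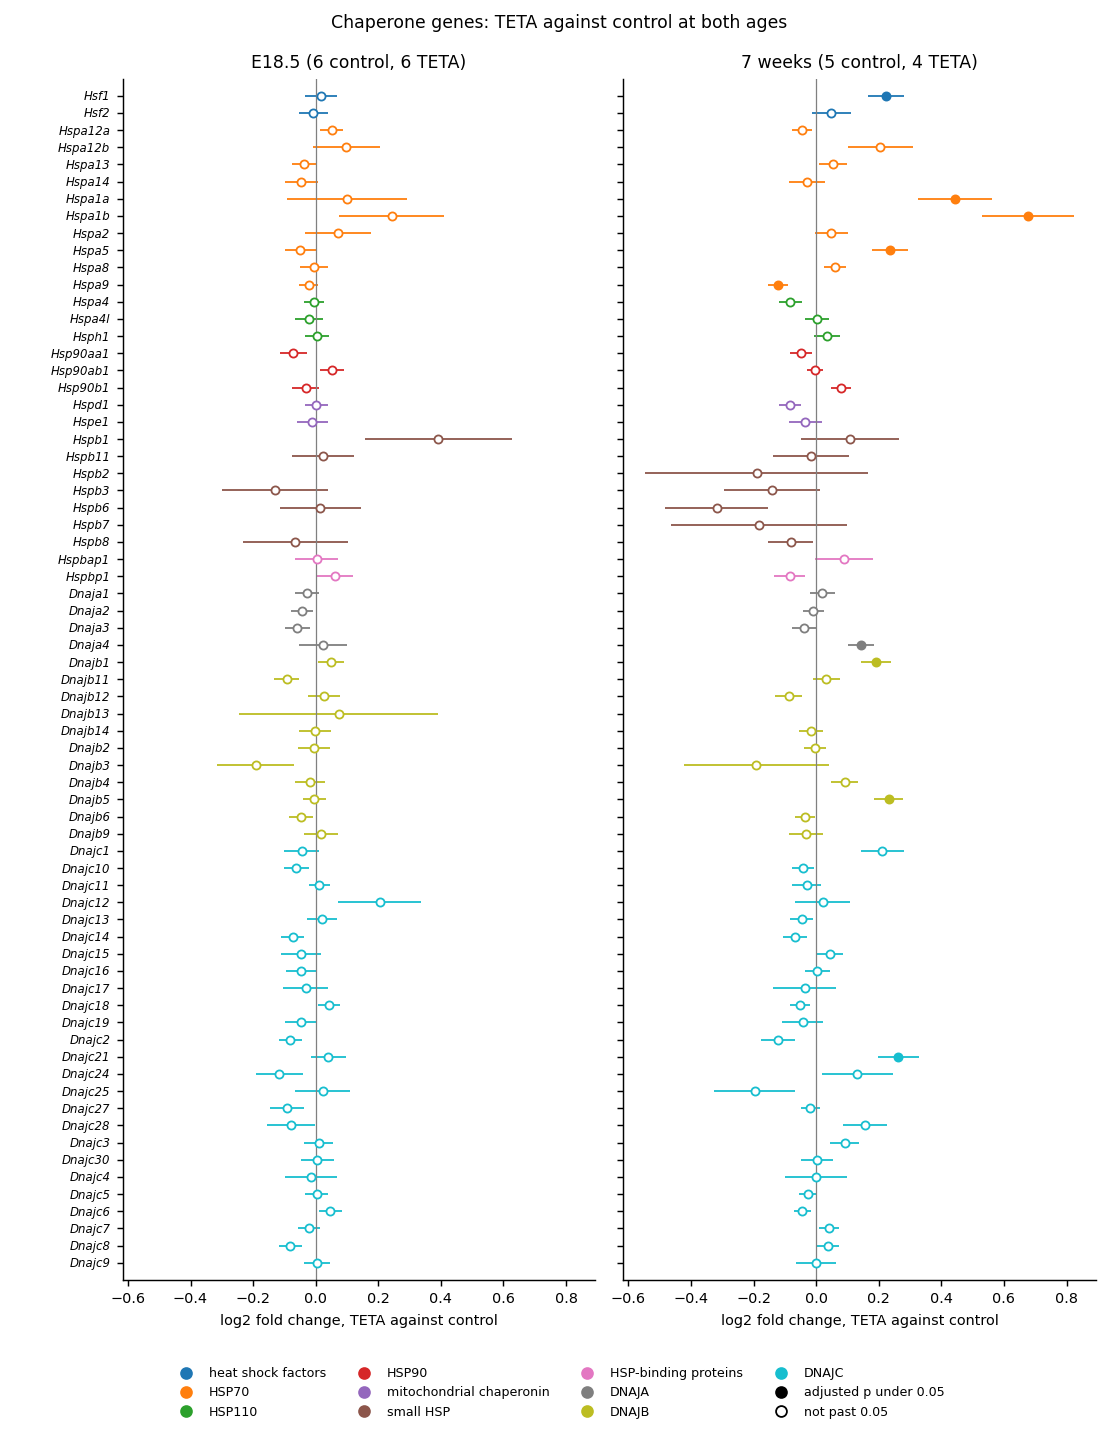
Log2 fold change of TETA against control (horizontal axis) for each chaperone gene tested, at E18.5 (left, 6 and 6 libraries) and at 7 weeks (right, 5 and 4 libraries). Points are edgeR estimates, lines are 1 SE to either side, colours are families and filled points have an adjusted p under 0.05. No point is filled at E18.5 and 9 are at 7 weeks, the highest of them Hspa1b at 0.68.

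Hsf1 encodes the transcription factor of the heat shock response and lies at chr15:76477422-76501913. The level of Hsf1 in control at 7 weeks was 25.5, 25.7, 25.9, 27.1 and 29.9 CPM in replicates 1 to 5. In TETA it was 29.0, 31.5, 32.2 and 32.8 CPM in replicates 1 to 4. The highest control library lay above the lowest TETA library, so the groups overlapped by that pair. The log2 fold change was 0.22 (SE 0.057, adjusted p = 0.0148 in edgeR's quasi-likelihood test). Hsf2, a related factor, ranged from 23.9 to 26.3 CPM in control and from 22.7 to 28.8 CPM in TETA and did not pass.

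Hspa1b and Hspa1a are neighbouring copies of the stress-inducible HSP70 (chr17:34956436-34959238 and chr17:34969190-34972156). Hspa1b measured 6.54, 5.24, 6.23, 5.36 and 3.95 CPM in control and 6.83, 7.30, 9.42 and 11.3 CPM in TETA. All 4 TETA libraries were above all 5 controls, by a narrow gap for replicate 1, and the log2 fold change of 0.68 (SE 0.147) was the largest among the chaperone genes (adjusted p = 0.00511 in edgeR's quasi-likelihood test). Hspa1a measured 4.49, 3.98, 5.48, 4.85 and 4.76 CPM in control and 5.80, 5.41, 6.97 and 7.26 CPM in TETA. Here the second TETA library fell just under the highest control, and the log2 fold change was 0.44 (SE 0.118, adjusted p = 0.0195 in the same test). These levels rest on 92 to 234 counts of Hspa1b and 95 to 162 counts of Hspa1a per library. Of the 50-base words in the longest transcript of each, 58.8% of those of Hspa1a and 62.3% of those of Hspa1b occur in the other, and how reads that fit both were counted is not given in the sources used here. Summed as a pair, the 2 genes gave a log2 fold change of 0.57 (SE 0.110, adjusted p = 0.00184 in edgeR's quasi-likelihood test), and 0.16 (SE 0.140) at E18.5.

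Hspa5 encodes BiP, the HSP70 of the ER lumen (chr2:34771970-34777547). It measured 211, 237, 236, 220 and 203 CPM in control and 234, 240, 278 and 289.9 CPM in TETA. TETA replicates 3 and 4 stood well above every control, while replicate 1 lay below 2 of the controls. The log2 fold change was 0.24 (SE 0.057, adjusted p = 0.0105 in edgeR's quasi-likelihood test). Its ER partner Hsp90b1 ranged from 302 to 317 CPM in control and from 314 to 345 CPM in TETA and did not pass (log2 fold change 0.08, adjusted p = 0.13 in that test). Dnajc1, a J-domain protein of the ER membrane, was close to the threshold: 18.7, 20.7, 21.1, 22.8 and 22.5 CPM in control against 22.5, 22.5, 26.8 and 26.0 CPM in TETA (log2 fold change 0.21, SE 0.069, adjusted p = 0.0569 in that test). Over 8 chaperone genes of the ER, a grouping made after the values were seen, 1 passed (12.5%, beside 9.96% of all genes), 6 of 8 were positive and the median was 0.07.

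Among the J-domain genes, Dnajb1 encodes the main cytosolic HSP40 (chr8:83608193-83612653). It measured 69.0, 70.0, 69.5, 73.8 and 63.3 CPM in control and 73.1, 77.2, 83.8 and 81.4 CPM in TETA, so that only TETA replicate 1 fell within the control range. The log2 fold change was 0.19 (SE 0.047, adjusted p = 0.0119 in edgeR's quasi-likelihood test). Dnajb5, a relative of Dnajb1 (chr4:42949814-42959425), measured 183, 158, 163, 181 and 158 CPM in control and 194, 190.3, 196 and 210.2 CPM in TETA. Every TETA library was above every control, and the log2 fold change of 0.23 (SE 0.046) had the smallest adjusted p among the chaperone genes (0.00242 in edgeR's quasi-likelihood test).

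Dnajc21, which takes part in maturation of the large ribosomal subunit (chr15:10446756-10470516), measured 26.8, 28.8, 31.2, 32.3 and 25.2 CPM in control. In TETA it measured 35.5, 33.2, 32.8 and 36.6 CPM, again with no overlap though the closest libraries were only just apart. The log2 fold change was 0.26 (SE 0.064, adjusted p = 0.0119 in edgeR's quasi-likelihood test). Dnaja4, a heat-inducible J-domain gene (chr9:54698873-54716315), measured 53.7, 53.6, 54.7, 52.0 and 51.2 CPM in control and 58.3, 56.7, 56.7 and 62.4 CPM in TETA. The groups did not overlap and the step was small, a log2 fold change of 0.14 (SE 0.041, adjusted p = 0.031 in that test). Of its exon bases, 44.1% lie on the opposite strand to exons of Wdr61, and the strand setting of the counting is not given.

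Hspa9 encodes mortalin, which pulls proteins into the mitochondrial matrix (chr18:34937414-34954357). It measured 218, 229, 233, 226 and 228 CPM in control and 212, 201, 204 and 216 CPM in TETA. The groups did not overlap, and the gene fell by 0.12 on the log2 scale (SE 0.032, adjusted p = 0.018 in edgeR's quasi-likelihood test). Its matrix partner Hspd1 ranged from 152 to 166 CPM in control and from 148 to 159 CPM in TETA and did not pass (log2 fold change -0.08, adjusted p = 0.157 in that test). Over 7 mitochondrial chaperone genes, grouped after the values were seen, 1 passed (14.3%, beside 9.96% of all genes), 6 of 7 were negative and the median was -0.04.

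**Figure D3:**
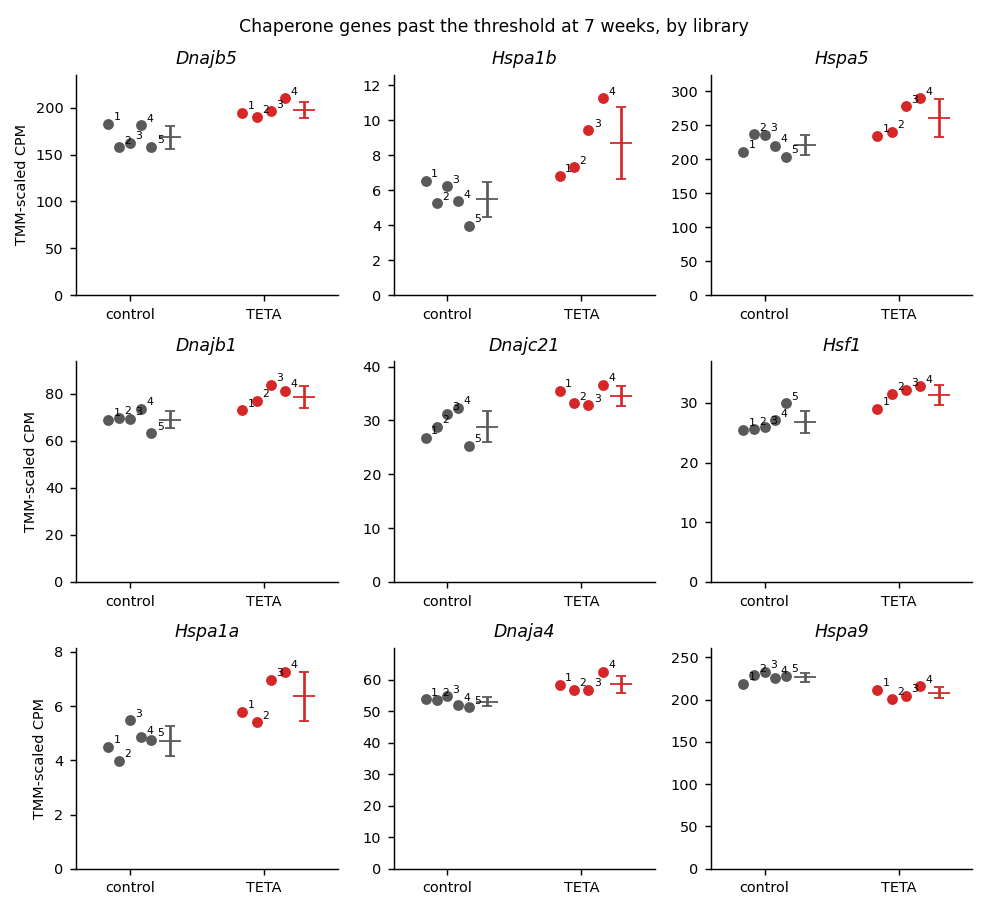
Level (TMM-scaled CPM, vertical axis from 0) of the 9 chaperone genes past the threshold at 7 weeks, by library; points carry the replicate number, and the bar beside them is the mean with 1 SD (n = 5 control, n = 4 TETA). Dnajb5, Hspa1b, Dnajc21, Dnaja4 and Hspa9 show no overlap between the groups, and TETA replicates 3 and 4 carry the highest values of Hspa1b, Hspa5 and Hspa1a.

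The control and TETA libraries were free of overlap in 5 of the 68 genes (Dnajb5, Hspa1b, Dnajc21, Dnaja4 and Hspa9), beside 11.2% of all genes tested. The calls leaned on TETA replicate 3. Without it 4 genes passed (Dnajb5, Hspa1b, Dnajc21 and Dnaja4), and for Hspa5, Dnajb1, Hsf1, Hspa1a and Hspa9 edgeR's quasi-likelihood test gave an adjusted p of 0.0518 at the lowest (Hspa5) and 0.0809 at the highest (Hspa1a). Over all genes the count then fell from 1418 to 927. Single calls also ended elsewhere: Dnaja4 without control replicate 4 or 5 or TETA replicate 1 or 4, Hspa1a without control replicate 2 or TETA replicate 4, and Hspa9 without TETA replicate 2. Dnaja4 and Hspa9 also lost their calls when the replicate number was added to the fit as a block. Over all settings but the striatum covariate given later, the adjusted p of Dnaja4 ran from 0.0154 to 0.126, that of Hspa1a from 0.0132 to 0.0809 and that of Hspa9 from 0.00335 to 0.0675. For Dnajb5, Hspa1b and Dnajc21 it stayed at or below 0.0434 in edgeR's quasi-likelihood test or DESeq2.

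The other families did not pass at 7 weeks. None of the 3 HSP90, 3 HSP110, 7 small HSP, 2 HSP-binding and 2 chaperonin genes tested was called. Hspa8 ranged from 1525 to 1635 CPM in control and from 1507 to 1732 CPM in TETA. Hsp90ab1 ranged from 1437 to 1530 and from 1448 to 1522 CPM, and Hsp90aa1 from 921 to 1019 and from 900.01 to 1006 CPM. For these abundant genes TETA lay inside or astride the control range. Of the 7 small HSP genes 6 were negative, from -0.32 upward, on low levels: Hspb6 ranged from 3.01 to 4.78 CPM in control and from 2.15 to 4.01 CPM in TETA, and Hspb8, which works with Bag3 in disposal of misfolded proteins, from 11.01 to 12.9 and from 10.8 to 12.04 CPM. Hsph1, an HSP110 raised by heat, ranged from 311 to 342 CPM in control and from 312 to 374 CPM in TETA, the top value above every control. Of the J-domain genes without a call, Dnajc6 ranged from 421 to 439 CPM in control and from 412 to 424 CPM in TETA, and Dnajc5 from 489 to 504 and from 474 to 506 CPM. The ER genes Dnajb9 (41.8 to 47.96 CPM in control, 39.3 to 47.7 in TETA) and Dnajc3 (59.9 to 65.7 and 62.5 to 73.3 CPM) overlapped between the groups as well. DNAJC, the largest family, had 1 of 25 called, DNAJB 2 of 10, DNAJA 1 of 4 and HSP70 4 of 10 (3 higher and 1 lower), where 9.96% of all genes were called.

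Partners outside the named families were followed in lists. Of 27 co-chaperones of HSP70 and HSP90, 3 were higher at 7 weeks (11.1%) and 0 lower, with a median of 0.00, where 5.67% of all genes were higher and 4.28% lower. They were Cdc37l1 (0.25, adjusted p = 3.85e-05 in edgeR's quasi-likelihood test) and Chordc1 (0.26, adjusted p = 0.00102), which bind HSP90, and Ppid (0.15, adjusted p = 0.0373), an HSP90-bound cyclophilin. Of 22 genes of ER folding and the unfolded protein response, 4 were higher (18.2%) and 0 lower, with a median of 0.06, beside the same 5.67% and 4.28% of all genes. Sdf2l1, a partner of BiP, had a log2 fold change of 0.38 (adjusted p = 0.0207 in that test), Pdia6, a disulfide isomerase, 0.17 (adjusted p = 0.0428), and Herpud1, of ER-associated degradation, 0.14 (adjusted p = 0.0261). Ppid, Sdf2l1, Pdia6 and Herpud1 did not hold when single libraries were left out. Of 9 such omissions Pdia6 lost its call in 7 (each control replicate and TETA replicates 3 and 4), with an adjusted p of up to 0.166 in edgeR's quasi-likelihood test. Ppid lost it in 6 (control replicates 3, 4 and 5 and TETA replicates 1, 3 and 4; up to 0.126). Herpud1 lost it in 5 (control replicates 4 and 5 and TETA replicates 2, 3 and 4; up to 0.106). Sdf2l1 lost it in 3 (control replicate 1 and TETA replicates 3 and 4; up to 0.0986). Cdc37l1, Chordc1 and Hsf4 passed in all 9. Hsf4, the only other heat shock factor of 3 that was tested, was higher (0.39, adjusted p = 0.00419 in that test). None passed among 8 genes of the CCT chaperonin, 6 of prefoldin and 8 of mitochondrial HSP90, exchange factors and proteases, and Cryab, a small HSP outside the rule, did not pass (0.12, adjusted p = 0.121). At E18.5 no gene of any of these lists passed.

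Markers of another brain region differed between control and TETA at 7 weeks. All 13 striatum markers (among them Drd1, Drd2 and Adora2a) were lower in TETA. Their summed level was 645 to 798 CPM in control and 252 to 354 CPM in TETA, lowest in replicate 3. In bulk samples fewer cells of a type, less RNA per cell and a smaller share of that region in the tissue taken cannot be told apart. With the striatum score as a covariate, 0 chaperone genes and 9 genes in all passed, and the log2 fold changes of Hspa5 (-0.11) and Hsf1 (-0.06) turned negative. The other 7 kept their sign: Dnajc21 (0.50), Hspa1b (0.34), Dnajb5 (0.31), Dnaja4 (0.21), Hspa1a (0.06), Dnajb1 (0.0078) and Hspa9 (-0.11). All 9 had an adjusted p of at least 0.927 in that fit by edgeR's quasi-likelihood test. Of the ER list, Sdf2l1 (-0.40) and Pdia6 (-0.13) also turned negative under the covariate. The score itself did not overlap between control and TETA, so the 2 cannot be told apart in that fit. Of the other lists, astrocyte markers had 3 of 8 lower (summed 5645 to 6492 CPM in control, 5185 to 5518 in TETA), meningeal fibroblast markers 3 of 7 lower, choroid plexus markers 1 of 7 lower (summed 14.4 to 71.3 CPM in control, the top value from control replicate 4, and 11.98 to 18.2 in TETA), endothelial markers 1 of 12 higher, and cortical projection neuron markers 2 of 8 lower. General neuron markers had 1 of 8 higher and 1 lower, while none of the oligodendrocyte, microglia, smooth muscle and blood markers passed. The part of these in the chaperone results was not tested beyond the striatum covariate.

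**Figure D4:**
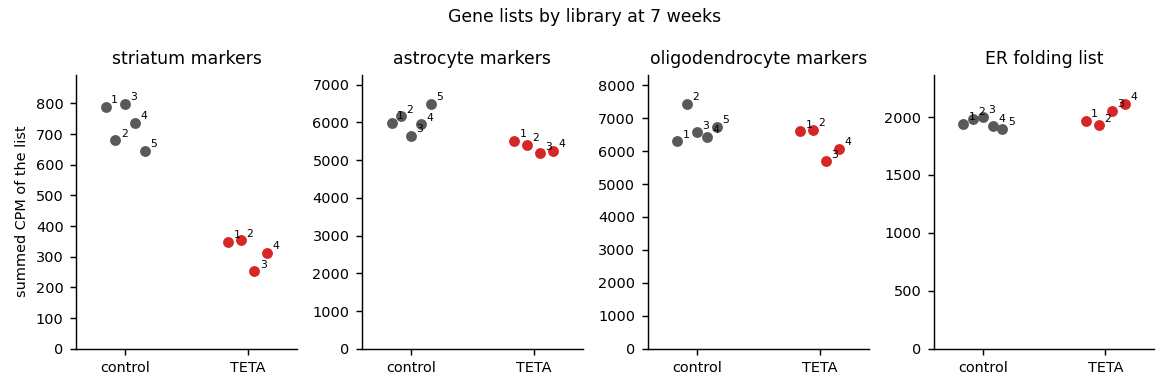
Summed CPM (vertical axis, from 0) of 4 gene lists in each 7-week library, with replicate numbers beside the points. The striatum sum is lower in every TETA library (252 to 354) than in any control (645 to 798), while the ER folding list spans 1900.3 to 2003 in control and 1930 to 2113 in TETA.

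Whether TETA acted differently at the 2 ages was tested as a difference of the effects in 1 fit over all 21 libraries. Of the 70 chaperone genes in it 1 passed, Dnajb5, beside 3.1% of all 14660 genes (1.67% with the higher value at 7 weeks and 1.43% with the lower). An unadjusted p under 0.05 was reached by 10 of the 70, beside 15.9% of all genes. Its log2 fold change at 7 weeks exceeded that at E18.5 by 0.23 (SE 0.062, adjusted p = 0.0393 in edgeR's quasi-likelihood test). At E18.5 Dnajb5 ranged from 127 to 143 CPM (median 135) in control and from 129 to 144 CPM (median 132) in TETA. The call was lost when any of 15 of the 21 libraries was left out, so it sits near the threshold. Hspa5 had the next value, a difference of 0.27 (SE 0.083, adjusted p = 0.0656 in that test). For the other 7 genes called at 7 weeks the difference between ages did not pass, from -0.11 for Hspa9 to 0.42 for Hspa1b, with adjusted p-values from 0.168 to 0.616. Of the pathway lists, Cdc37l1 (0.30, adjusted p = 0.000776 in edgeR's quasi-likelihood test) and Manf, a factor secreted from the ER (0.27, adjusted p = 0.0175), passed. With each of the 21 libraries left out in turn, Manf lost its call in 2 cases and Cdc37l1 kept its call throughout. Of the marker lists, 12 of 13 striatum markers passed with the lower value at 7 weeks (median difference -1.36), as did 1 of 8 astrocyte, 1 of 12 endothelial and 1 of 8 choroid plexus markers. Their part in the difference for Dnajb5 was not tested.

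Control brain at 7 weeks was then set against control brain at E18.5. Age cannot be told apart here from the table, since each age was counted in its own, nor from region and sex. Of all 14660 genes 89.3% passed, 44% higher and 45.3% lower at 7 weeks, and 89.7% had an unadjusted p under 0.05, so a call alone says little. Of the 70 chaperone genes tested 59 passed (84.3%), 38 higher and 21 lower, and the control groups did not overlap in 51, beside 79.5% of all genes. Of the 38, Hspb2 and Hspb7 passed the filter on low counts only through their 7-week libraries, which set their direction beforehand. The median log2 fold change was 0.30 over the chaperone genes and -0.02 over all genes. Without TMM scaling the medians were 0.16 and -0.17, with 37 higher and 29 lower. Levels in this comparison are CPM scaled over both ages. It shares its 5 control libraries at 7 weeks with the TETA comparison above.

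Hspa2, an HSP70 best known from the testis, was the most changed of the genes above 1 CPM. It ranged from 3.37 to 4.65 CPM (median 3.72) at E18.5 and was 45.3, 41.0, 40.7, 44.0 and 46.0 CPM at 7 weeks, a log2 fold change of 3.53 (SE 0.071, adjusted p = 3.96e-29 in edgeR's quasi-likelihood test). Hspb8 ranged from 1.54 to 2.68 CPM (median 2.02) at E18.5 and was 13.6, 13.4, 11.6, 12.4 and 13.1 CPM at 7 weeks, a change of 2.69 (SE 0.110). Dnaja4 ranged from 8.10 to 10.1 CPM (median 9.48) and was 56.8, 56.7, 57.7, 54.9 and 53.9 CPM at 7 weeks, a change of 2.58 (SE 0.059). These 3 sets of levels lie far apart between the ages.

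Hspb1 ranged from 0.343 to 0.785 CPM (median 0.508) at E18.5 and was 2.49, 3.33, 4.19, 3.56 and 2.94 CPM at 7 weeks, a change of 2.56 (SE 0.188). Dnajc12, a partner of the aromatic amino acid hydroxylases, ranged from 1.84 to 2.77 CPM (median 1.99) and was 10.5, 9.27, 11.5, 9.07 and 9.01 CPM at 7 weeks, a change of 2.19 (SE 0.103). The inducible pair rose as well, Hspa1b by 2.14 (SE 0.167) and Hspa1a by 1.52 (SE 0.157). Among HSP110 genes Hspa4l rose from 58.4 ± 4.07 to 237 ± 8.76 CPM and Hsph1 from 184 ± 9.80 to 348 ± 12.5 CPM, while Hspa4 (315 ± 4.34 and 301 ± 12.7 CPM) did not pass (SD, n = 6 and 5 throughout). Of the synaptic J-domain genes, Dnajc6 rose from 174 ± 5.64 to 454 ± 8.69 CPM and Dnajc5 from 416 ± 12.2 to 523 ± 5.22 CPM.

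Among the genes above 1 CPM, these 5 had the largest changes the other way. Dnajb3 ranged from 2.79 to 4.65 CPM (median 3.93) at E18.5 and was 1.66, 1.33, 1.08, 0.755 and 1.27 CPM at 7 weeks, a log2 fold change of -1.62 (SE 0.161, adjusted p = 7.45e-11 in edgeR's quasi-likelihood test). Hsf2 ranged from 56.7 to 69.0 CPM (median 62.8) and was 27.8, 25.5, 25.3, 25.4 and 27.4 CPM at 7 weeks, a change of -1.25 (SE 0.056). Dnajc9, a histone chaperone, ranged from 48.5 to 55.7 CPM (median 52.9) and was 22.0, 22.5, 22.0, 22.2 and 21.5 CPM, a change of -1.25 (SE 0.051). In these genes every 7-week control lay below every E18.5 control. Hspbap1, named for binding Hspb1, changed by -1.19 (SE 0.076) and Dnajc2 by -0.85 (SE 0.043). The mitochondrial chaperonin also fell, Hspd1 from 226 ± 9.78 to 170.1 ± 6.74 CPM and Hspe1 from 65.9 ± 4.79 to 52.4 ± 2.95 CPM. Dnaja1, a cytosolic partner of Hspa8, fell from 345 ± 16.4 to 257 ± 12.8 CPM (SD, n = 6 and 5 here too).

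Of the other genes of the ER, Dnajb9 rose from 28.3 ± 2.22 to 47.8 ± 2.69 CPM and Dnajc3, which tempers the kinase branch of the unfolded protein response, from 38.2 ± 2.23 to 66.5 ± 2.56 CPM, while Hspa5 and Hsp90b1 did not pass. Dnajb2, which guides clients to the proteasome in neurons, rose from 38.5 ± 1.78 to 90.9 ± 1.41 CPM, and Hspa12a, a distant HSP70 of the brain, from 193 ± 4.92 to 305 ± 10.4 CPM. Dnajb6 stood at 136 ± 7.74 and 135 ± 3.07 CPM and did not pass. Smaller changes passed for Dnajb1 (0.53, SE 0.045), Hspa9 (0.27, SE 0.029) and Hsp90aa1 (0.25, SE 0.041), which were higher, and for Hsp90ab1 (-0.13, SE 0.033) and Hsf1 (-0.25, SE 0.053), whose levels overlapped between the ages.

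**Figure D5:**
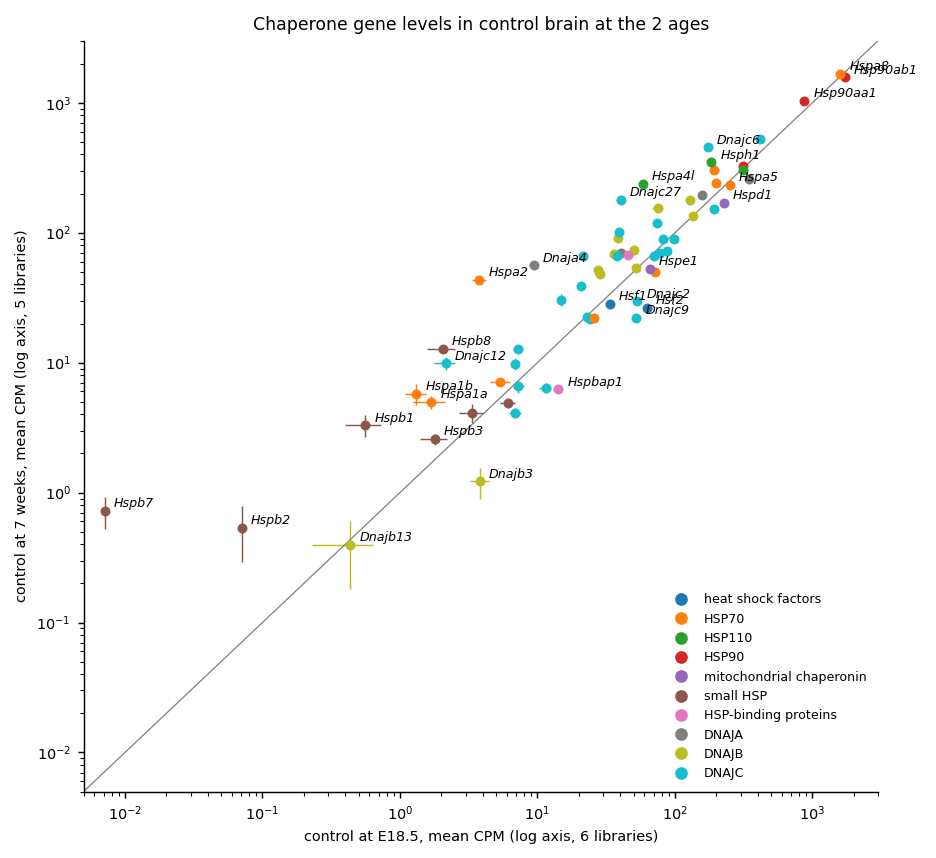
Mean level of the chaperone genes tested between ages and reported here in control brain at E18.5 (horizontal, 6 libraries) and at 7 weeks (vertical, 5 libraries), in CPM on log axes; lines are 1 SD (left out along the horizontal axis where it exceeds the mean), colours are families and the diagonal marks equal levels. Hspa2, Hspb8, Hspb1 and Dnaja4 lie far above the diagonal, Hsf2, Dnajc9 and Dnajb3 below it, and the abundant Hspa8 and Hsp90ab1 close to it.

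The counts by family and list at 7 weeks against E18.5 stand beside 44% of all genes higher and 45.3% lower. Counts near these shares say little of a family. Both heat shock factors and the chaperonin genes Hspd1 and Hspe1 were lower, and 5 of 7 small HSP genes tested were higher with 1 lower (Hspb11). Of those higher, Hspb2 and Hspb7 failed the filter on low counts at E18.5, with at most 3 and 1 counts. They entered through their 7-week libraries, which set their direction beforehand. HSP70 had 6 of 10 higher and 2 lower, DNAJB 7 of 11 higher and 1 lower, DNAJC 13 of 25 higher and 9 lower, DNAJA 3 of 4 higher and 1 lower, and HSP90 1 of 3 higher (Hsp90aa1) and 1 lower (Hsp90ab1). All 8 tested genes of the cytosolic CCT chaperonin, which folds actin and tubulin, were lower, with a median of -1.04. Cryab rose by 4.49 (SE 0.083). Of the 27 co-chaperones 14 were higher, among them Tomm34 (1.30), and 12 lower, among them Ahsa2 (-2.15). Of the 22 ER genes 10 were higher, led by Atf6 (2.14), and 10 lower, among them P4hb (-0.81). Of the mitochondrial list 3 of 8 were higher and 2 lower (Grpel2 by -1.26), and of prefoldin 1 of 6 higher and 2 lower (Vbp1 by -1.08). Hsf4 was higher, on a summed level of the other heat shock factors of 0.189 to 0.597 CPM at E18.5 and 11.1 to 14.3 CPM at 7 weeks. Like Hspb2 and Hspb7 it failed the filter at E18.5 and entered through its 7-week libraries, so its direction was set beforehand.

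Cell type markers moved with age too. All 8 oligodendrocyte markers were higher at 7 weeks (summed 63.8 to 74.4 CPM in control at E18.5, where Opalin was at 0, and 6665 to 7865 CPM at 7 weeks), as were all 8 astrocyte markers (552 to 638 and 5959 to 6844 CPM) and all 8 microglia markers (62.3 to 71.4 and 411 to 457 CPM). Smooth muscle markers had 3 of 3 tested higher (1.93 to 3.85 and 16.6 to 22.6 CPM), meningeal fibroblast markers 6 of 7 higher (9.17 to 22.04 and 60.9 to 73.0 CPM), and choroid plexus markers 6 of 8 higher and 2 lower. Striatum markers had 10 of 13 higher and 2 lower (449.7 to 523 and 679.9 to 843 CPM), general neuron markers 5 of 8 higher and 3 lower, and endothelial markers 5 of 12 higher and 4 lower. Blood markers had 5 of 5 tested lower. Of the 8 cortical projection neuron markers 6 were lower and 1 higher, with a median log2 fold change of -0.54, although their summed level was higher (1811 to 2020.1 CPM at E18.5 and 2389 to 2552 CPM at 7 weeks). Some markers failed the filter on low counts at E18.5 and passed it at 7 weeks, which set their direction beforehand. They were 3 of the oligodendrocyte, 2 of the meningeal fibroblast and 1 of the striatum markers, and some of the choroid plexus markers. The part of the marker lists in the age results was not tested.

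Genes that failed the filter on low counts complete the 77. At E18.5 there were 10, among them Hspb2, Hspb7, Hspb9, Hspa1l, Dnajb7, Dnajb8, Dnajc22, Dnajc5b and Dnajc5g, each of these with at most 7 counts in any library. At 7 weeks there were 9, since Hspb2 and Hspb7 passed there and Dnajb13 did not, with at most 17 counts. Hspb7 was at 0 in all but 3 of the 12 E18.5 libraries and at 0.537 to 1.01 CPM in control at 7 weeks. Dnajb8, known from the testis, had no count in any library, which allows a pooled level of up to 0.00701 CPM (3 counts over all libraries, counting error only). Other shared exons bear on single genes: Hspb2 shares 30.2% of its exon bases with Cryab on the opposite strand, Dnajc30 26.3% with Bud23, and Hspa1a 19% with Gm20481.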

How the data were processed

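Each age has 1 table, deposited by the authors, of read counts (whole numbers) by gene symbol, its columns being libraries (per the file headers). Per the submitters' processing notes STAR 2.7.1a, featureCounts 2.0.1 and mm10 were used, with roles not stated; annotation and strand setting are not given in the sources used here. Rows of the E18.5 table at 0 in control replicate 1-1 (1940) were divided by 11, the common factor of their counts, whose origin is not stated.

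Members, families and lists were chosen with earlier results of these data known. Genes were kept by filterByExpr (minimum count 10), scaled by TMM and tested by edgeR 4.0.16 (quasi-likelihood, limma 3.58.1, R 4.3.3), each TETA comparison within its age; age and the difference of effects came from 1 fit over 21 libraries. The SE is the log2 fold change divided by the square root of F. Named were 27 fixed members, members past the threshold (at most 10 in each direction, or the 3 smallest p where fewer than 3 passed), the 5 most changed with age each way with a mean of at least 1 CPM, and at most 3 list genes per direction. Any other gene named with a value was chosen after its values were seen. Exon lengths and coordinates are GENCODE vM21 (GRCm38), matched for 76 of 77 members; Python 3.11.15, numpy 2.4.6 and pandas 2.3.3 made the tables. Alternatives tried: dropping the filter, requiring a mean count of 50, no TMM, DESeq2 1.42.0, no division, leaving out each library, a replicate block, summed libraries, control libraries only and a striatum covariate; summing Hspa1a and Hspa1b was added after seeing the data. The test was tried on simulated counts. Results for some genes are not reported here.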

Additional observations from a re-analysis of the deposited data

Results flagged for a closer look

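Of 148 groups of values of the named genes examined, 5 held a library far from the others, where 1 in 20 (7.4 groups) is what chance gives. Hspa2 in control at E18.5 was high in replicate 1-1, at 4.85 CPM beside 3.51 to 3.91 in the others, a gap of 0.696 of the range. Hspb1 in TETA at 7 weeks was high in replicate 4, at 4.14 CPM beside 3.05 to 3.12, a gap of 0.936 of the range. Dnajb2, a neuronal J-domain gene, was low in TETA replicate 1-2 at E18.5, at 34.5 CPM beside 39.7 to 42.8 (0.627 of the range). Dnajb6, a suppressor of protein aggregation, was low in TETA replicate 3-1 at E18.5, at 130.7 CPM beside 137 to 139.9 (0.697 of the range). Dnajc8 was low in control replicate 2-2 at E18.5, at 75.6 CPM beside 81.3 to 83.8 (0.692 of the range). The gap is the distance to the nearest other library divided by the whole range, and all 5 lie above Dixon's 95% limit. The TETA effect on Dnajb5 differed between the ages by 0.225 on the log2 scale, higher at 7 weeks (adjusted p = 0.0393 in edgeR's quasi-likelihood test).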

How the results depend on the processing

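At E18.5 0 chaperone genes passed under every alternative run, while the count over all genes was 10 in DESeq2, 2 with libraries of the same first number summed, and 0 to 7 when libraries were left out; leaving out libraries moved Dnajb5 between -0.0251 and 0.0126, Hsf1 between -0.0075 and 0.0419, Hspa1a between -0.0111 and 0.20 and Dnaja4 between -0.0175 and 0.0564. At 7 weeks the 9 genes all passed without the filter, with a mean of at least 50 counts, without TMM and in DESeq2. Leaving out a library gave 4 to 10 genes (4 to 10 higher, 0 to 1 lower, 927 to 1392 over all genes), lowest without TETA replicate 3. The striatum covariate gave 0 genes, 0 higher and 0 lower, and 9 over all genes; under it Hspa5 (-0.11), Hsf1 (-0.0580), Dnajc1 (-0.28), Hsp90b1 (-0.0232), Sdf2l1 (-0.40) and Pdia6 (-0.13) turned negative and Dnajc2 (0.0116) and Hspd1 (0.0444) positive. For the difference between ages, 2 genes passed without TMM (Dnajb5 and Hspa5) and 2 in DESeq2 (Dnajb5 and Hspa9), and 0 to 2 when libraries were left out (290 to 622 over all genes). The causes were not tested. No label says whether the numbers shared by control and TETA pair the libraries. Deviations of same-numbered libraries had correlations between -0.275 and 0.284 (E18.5) or between -0.0692 and -0.0295 (7 weeks). Libraries of different number were not correlated, so these values cannot decide whether the numbers pair them. With the replicate block the members called were 0 at E18.5, 8 at 7 weeks (8 higher and 0 lower, without Dnaja4 and Hspa9 and with Dnajc1) and 1 for the difference.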
